A study of Mus musculus with 18 samples.

Results

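AA467197 and Ndufa4 are paralogous mouse genes, 2 of the 27179 genes listed in each of 18 3′ mRNA libraries. AA467197 was selected on its CPM difference between the libraries labelled Cre-positive and Cre-negative in these data, and Ndufa4 because it is the paralog whose place the AA467197 product can take. The cells were naive CD4 T cells of Maf fl/fl mice, in which the Maf gene is floxed in every group, labelled CD4Cre- or CD4Cre+. They were activated on plates coated with anti-CD3 and anti-CD28 antibodies, grown for 3.5 days under treatments labelled Tfh_A, Tfh_1 or Tfh_5 (TfhA, Tfh1 and Tfh5 below), and sorted by flow cytometry. CD4Cre is a Cre recombinase transgene under Cd4 control, so deletion is not limited to 1 helper cell subset. The sources used here give neither the age of the mice nor the content of each treatment. Each of the 6 groups of label and treatment holds 3 libraries, with replicate numbers 2, 4 and 5 under the Cre-negative label and 1, 3 and 6 under the Cre-positive label. Whether a replicate number means 1 mouse is not recorded, so the p-values reflect only how these libraries vary, and that variation may be technical.

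Cytochrome c oxidase, or complex IV, is the last enzyme of the mitochondrial respiratory chain and passes electrons from cytochrome c to oxygen. NDUFA4 was first assigned to complex I and is now counted as a complex IV subunit, also named COXFA4. The AA467197 product, called NMES1 and C15orf48 in human, is a small mitochondrial protein that is induced in inflamed tissue and activated macrophages, where it can take the place of NDUFA4 in complex IV. The AA467197 transcript also carries the hairpin of the microRNA miR-147, which is known to act against Ndufa4 mRNA.

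The label check came out against the genotype names. Maf RNA was near 0 under the Cre-negative label, where the gene should be intact, and was present under the Cre-positive label. Whether the labels are swapped was not tested. Maf counts summed to 17.3 over the 9 libraries labelled Cre-negative, of which 6 were at 0 and the highest held 15, whereas each library labelled Cre-positive held at least 42 and the 9 summed to 12405. Mean Maf under the Cre-positive label was 12.0 ± 9.52 CPM in TfhA, 221 ± 34.3 CPM in Tfh1 and 349 ± 42.0 CPM in Tfh5 (SD, n = 3 each). Under the Cre-negative label the means were 0.09, 0.676 and 0 CPM, so Maf differed least between labels in TfhA. The part of Maf level in the label differences below was not tested. The sources used here do not say which part of Maf is floxed. Groups keep their label names throughout, and every direction between labels below is a direction between label names. Totals were 6424874 to 9236153 counts per library, and 2 identifiers without a gene name took 19.7% to 46.2% of them. All 7 T cell markers were present, with a summed level of 1510 to 3020 CPM, counts scaled to a common library size. Markers of B, CD8 T, NK, myeloid and epithelial cells summed to at most 4.67, 7.84, 1.49, 6.84 and 8.47 CPM in any library, and Ncr1, Fcgr1 and Cdh1 were at 0 in all 18.

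AA467197 (Entrez Gene 433470) lies on the plus strand of chromosome 2 from 122637887 to 122641076 in GRCm38.p6 and has 5 exons in the main GENCODE M21 transcript. Mir147 lies inside it, from 122640803 to 122640881, within the 3′ untranslated region of 2 of its 4 annotated transcripts. Ndufa4 (Entrez Gene 17992) lies on the minus strand of chromosome 6 from 11900372 to 11907450 and has 4 exons. The 5′ arm of the microRNA is shown because it is another product of the AA467197 transcript; the arm linked to Ndufa4 is mmu-miR-147-3p. The stretches before both genes are shown because the genes moved in opposite directions. They are the parts of the 250 bases before each start that lie outside every annotated exon. All are RefSeq sequence on GRCm38.p6, written 5′ to 3′ on the gene's own strand, and capitals mark the microRNA seed or a motif.
mmu-miR-147-5p, chr2:122640814-122640837, plus strand: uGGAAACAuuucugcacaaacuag
AA467197 upstream, chr2:122637755-122637849, plus strand: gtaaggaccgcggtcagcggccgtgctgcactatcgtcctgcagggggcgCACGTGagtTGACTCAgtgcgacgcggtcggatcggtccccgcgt
Ndufa4 upstream, chr6:11907498-11907700, minus strand: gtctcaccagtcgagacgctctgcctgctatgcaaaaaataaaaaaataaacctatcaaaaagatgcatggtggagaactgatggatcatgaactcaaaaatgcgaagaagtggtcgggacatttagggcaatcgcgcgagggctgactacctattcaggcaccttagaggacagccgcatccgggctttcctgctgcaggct

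Motifs were searched on both strands of the 300 bases from 250 before to 50 after each start. The AA467197 window held 1 AP-1 element, TGANTCA, at 73 to 67 bases before the start (-73 to -67), and 7.81% of 32851 such windows hold one. It also held the hypoxia response core ACGTG on both strands, as 2 overlapping matches from -82 to -77, a core present in 19.6% of windows. The Maf half-site TGCTGAC (4.67% of windows), the κB element (5.80%), the STAT element TTCNNNGAA (8.30%), the NRF1 element (4.60%) and the TATA box TATAAA (13.6%) were not found there. None of these 7 motifs was found in the Ndufa4 window. A match is a run of letters and not a binding site, and a missing match says only that those letters are not in the window. The windows held 62.7% and 53.0% G and C.

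The transcript ends of the 2 genes differ in sequence. Over the last 500 bases of their transcripts, where 3′ reads fall, no run of 50 bases was shared between them. The 451 such runs of AA467197 occur in no other annotated transcript except 30 that are the overlapping Mir147 hairpin, and the 419 of Ndufa4 occur in no other. The search covered only exact runs in annotated transcripts, so it does not show that every read of either gene is unique. Deposited counts were 402 to 6721 for AA467197 and 104 to 971 for Ndufa4. Values that are not whole, which arise where a read is divided, occurred in 5 libraries for AA467197 and in 16 for Ndufa4. The rule by which reads were divided is not given in the sources. The microRNA itself was listed at 0 in all 18 libraries, which read polyadenylated transcript ends and so say nothing of the mature microRNA. Another paralog, Ndufa4l2 on chromosome 10, a hypoxia-induced member of the family, was also at 0 in all 18, which allows up to 3 counts in each.

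In the libraries labelled Cre-negative, AA467197 rose from TfhA through Tfh1 to Tfh5 while Ndufa4 fell. Mean AA467197 was 18.1-fold higher in Tfh5 than in TfhA, and mean Ndufa4 was 5.10-fold higher in TfhA than in Tfh5. Levels are CPM scaled with TMM factors and are not divided by transcript length, since a 3′ library gives about 1 fragment per transcript.

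AA467197 stood at 70.7, 41.1 and 44.0 CPM in TfhA (replicates 2, 4 and 5), a mean of 51.9 ± 16.3 (SD, n = 3). It stood at 245, 283 and 288 CPM in Tfh1, a mean of 272 ± 23.8 (SD, n = 3). In Tfh5 it reached 780, 910 and 1124 CPM, a mean of 938 ± 174 (SD, n = 3). The lowest library of each treatment lay above the highest of the one before it, so the 3 groups did not overlap. The log2 difference was 2.39 ± 0.25 (SE) from TfhA to Tfh1 (adjusted p = 3.369e-08, edgeR's quasi-likelihood test with Benjamini-Hochberg adjustment over 11735 genes, as throughout). From TfhA to Tfh5 it was 4.18 ± 0.27 (adjusted p = 2.825e-13, edgeR), and from Tfh1 to Tfh5 it was 1.79 ± 0.24 (adjusted p = 3.789e-05, edgeR). In these comparisons 2.23%, 5.08% and 0.554% of all genes tested passed an adjusted p of 0.05 in either direction. These contrasts share libraries with the label difference for which the gene was chosen. In bulk RNA, more cells that express a gene and more RNA per cell cannot be told apart.

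Ndufa4 stood at 78.4, 99.3 and 61.5 CPM in Cre-negative TfhA, a mean of 79.8 ± 18.9 (SD, n = 3). It stood at 31.9, 36.1 and 31.4 CPM in Tfh1, a mean of 33.1 ± 2.59 (SD, n = 3). In Tfh5 it stood at 14.4, 15.1 and 17.4 CPM, a mean of 15.6 ± 1.57 (SD, n = 3). The 3 groups again did not overlap, in the opposite order. Ndufa4 fell by 2.35 ± 0.36 on the log2 scale from TfhA to Tfh5 (adjusted p = 2.74e-05, edgeR). From TfhA to Tfh1 it fell by 1.27 ± 0.35 (adjusted p = 0.04167, edgeR), a call that was lost on leaving out any 1 of the 6 libraries (-1.41 to -1.05, adjusted p 0.0664 to 0.2508). From Tfh1 to Tfh5 the log2 difference was -1.08 ± 0.35, which did not pass (adjusted p = 0.1855, edgeR; 95% interval -1.77 to -0.39).

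**Figure D1:**
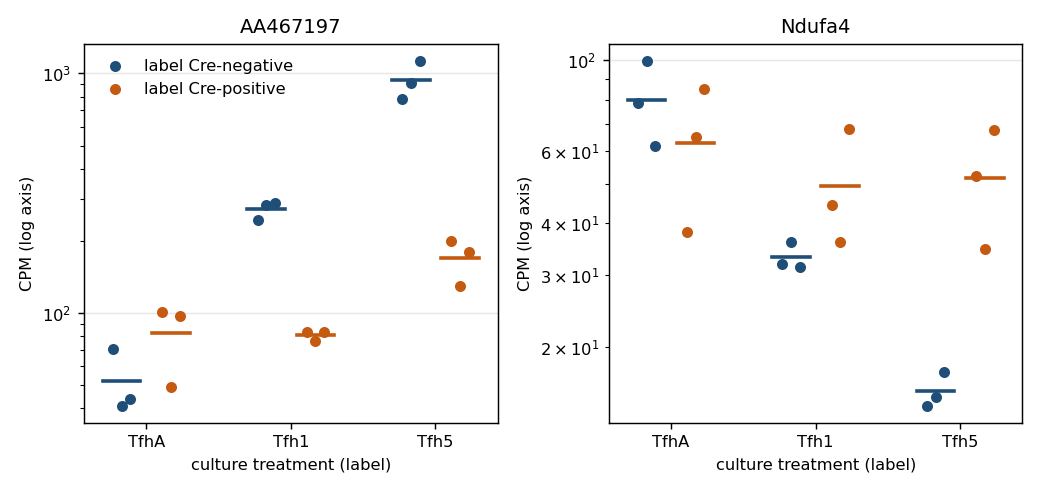
AA467197 (left) and Ndufa4 (right) in every library, as TMM-scaled CPM on a log axis with its own range in each panel, by treatment label and Cre label; each point is 1 library and each bar the mean of 3. Under the Cre-negative label AA467197 climbs from a mean of 51.9 to 938 CPM and Ndufa4 drops from 79.8 to 15.6 CPM, whereas the Cre-positive Ndufa4 groups overlap one another.

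In the libraries labelled Cre-positive, AA467197 was higher in Tfh5 than in the other treatments, and Ndufa4 did not pass the test in any treatment contrast. AA467197 stood at 101, 49.0 and 96.8 CPM in TfhA (replicates 1, 3 and 6), a mean of 82.4 ± 29.0 (SD, n = 3). It stood at 83.5, 76.1 and 83.5 CPM in Tfh1, a mean of 81.05 ± 4.28 (SD, n = 3). In Tfh5 it stood at 199, 130 and 180 CPM, a mean of 170 ± 35.8 (SD, n = 3). TfhA and Tfh1 overlapped, and all 3 Tfh5 libraries lay above both. The contrasts that follow share libraries with the label difference for which the gene was chosen. The log2 difference from TfhA to Tfh5 was 1.04 ± 0.24 (adjusted p = 0.004686, edgeR), where 5.39% of all genes passed. Without replicate 3 of TfhA it was 0.77 and did not pass (adjusted p = 0.07099, edgeR), and with only the compared groups fitted it was 1.04 and did not pass (adjusted p = 0.06475, edgeR). From Tfh1 to Tfh5 it was 1.06 ± 0.24 (adjusted p = 0.01037, edgeR), where 1.76% of all genes passed, and that call was lost without Tfh1 replicate 3 (adjusted p = 0.05723) or Tfh5 replicate 1 (adjusted p = 0.05766). Between TfhA and Tfh1 the difference was -0.02 ± 0.24 (adjusted p = 1.0, edgeR; 95% interval -0.49 to 0.45), where 2.57% of all genes passed.

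Ndufa4 under the Cre-positive label stood at 38.0, 65.04 and 84.8 CPM in TfhA, a mean of 62.6 ± 23.5 (SD, n = 3). It stood at 44.4, 36.1 and 67.7 CPM in Tfh1, a mean of 49.4 ± 16.4 (SD, n = 3). In Tfh5 it stood at 52.3, 34.5 and 67.5 CPM, a mean of 51.4 ± 16.5 (SD, n = 3). All 3 groups overlapped, and replicate 6 was the highest library in each. The log2 differences had wide intervals: -0.34 ± 0.34 from TfhA to Tfh1 (adjusted p = 0.7894, edgeR; 95% interval -1.02 to 0.33), and -0.28 ± 0.34 from TfhA to Tfh5 (adjusted p = 0.7751, edgeR; -0.96 to 0.39). From Tfh1 to Tfh5 the difference was 0.06 ± 0.34 (adjusted p = 1.0, edgeR; 95% interval -0.61 to 0.73). The TfhA to Tfh5 interval does not include the fall of 2.35 seen in that contrast under the Cre-negative label (95% interval -3.06 to -1.64). The change of the label difference with treatment is tested below.

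Between labels, AA467197 is described without a test because this difference chose it. In TfhA the label groups overlapped, with means of 82.4 CPM under the Cre-positive and 51.9 CPM under the Cre-negative label and a log2 difference of 0.67 ± 0.24 (SE, Cre-positive minus Cre-negative). In Tfh1 the Cre-negative mean was 3.35-fold the Cre-positive one (log2 -1.75 ± 0.24), and in Tfh5 it was 5.53-fold (log2 -2.47 ± 0.25). The groups did not overlap in either of those treatments. Over counts summed per replicate number the log2 difference was -1.78 ± 0.16, and 1.68% of 11693 genes passed there in either direction.

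Ndufa4 differed between labels in Tfh5, in the opposite direction. Its 3 Cre-positive Tfh5 libraries, at 34.5 to 67.5 CPM, lay above the Cre-negative ones at 14.4 to 17.4 CPM, a 3.29-fold difference of means. The log2 difference was 1.72 ± 0.36 (adjusted p = 0.002699, edgeR), where 3.24% of all genes passed in either direction and 1.19% were higher under the Cre-positive label. The call was lost with limma-voom (1.68, adjusted p = 0.06172) and in an edgeR fit of these 6 libraries alone (1.73, adjusted p = 0.09159), and it held when any 1 of the 6 was left out (1.49 to 1.94). In Tfh1 the groups overlapped and the difference was 0.58 ± 0.35 (adjusted p = 0.5683, edgeR; 95% interval -0.10 to 1.25), where 0.852% of all genes passed. In TfhA they also overlapped, with a difference of -0.35 ± 0.34 (adjusted p = 1.0, edgeR; 95% interval -1.02 to 0.32), where 0% of all genes passed. Over summed counts the difference was 0.28 ± 0.22 (adjusted p = 0.6764, edgeR; 95% interval -0.15 to 0.70).

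The label difference of Ndufa4 itself changed with treatment. It was larger in Tfh5 than in TfhA by 2.07 ± 0.49 on the log2 scale (adjusted p = 0.02103, edgeR), a contrast in which 1.19% of all genes passed. This call was lost with limma-voom (2.0, adjusted p = 0.09172) and without Cre-negative TfhA replicate 4 (1.87, adjusted p = 0.09834), Cre-positive TfhA replicate 1 (1.81, adjusted p = 0.09789) or Cre-positive Tfh5 replicate 6 (1.82, adjusted p = 0.08579). Between Tfh1 and TfhA the change was 0.92 ± 0.49 (adjusted p = 0.7524, edgeR; 95% interval -0.03 to 1.88), where 0.239% passed. Between Tfh5 and Tfh1 it was 1.14 ± 0.49 (adjusted p = 0.5172, edgeR; 95% interval 0.18 to 2.10), where 0.0597% passed. For AA467197 the same changes, given without a test, were -3.13, -2.41 and -0.72. The summed T cell markers moved with the label in these treatments, at 2364 to 3020 CPM in Cre-positive Tfh1 and Tfh5 and 1510 to 1939 CPM in the other 4 groups, and their part in the label differences was not tested.

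**Figure D2:**
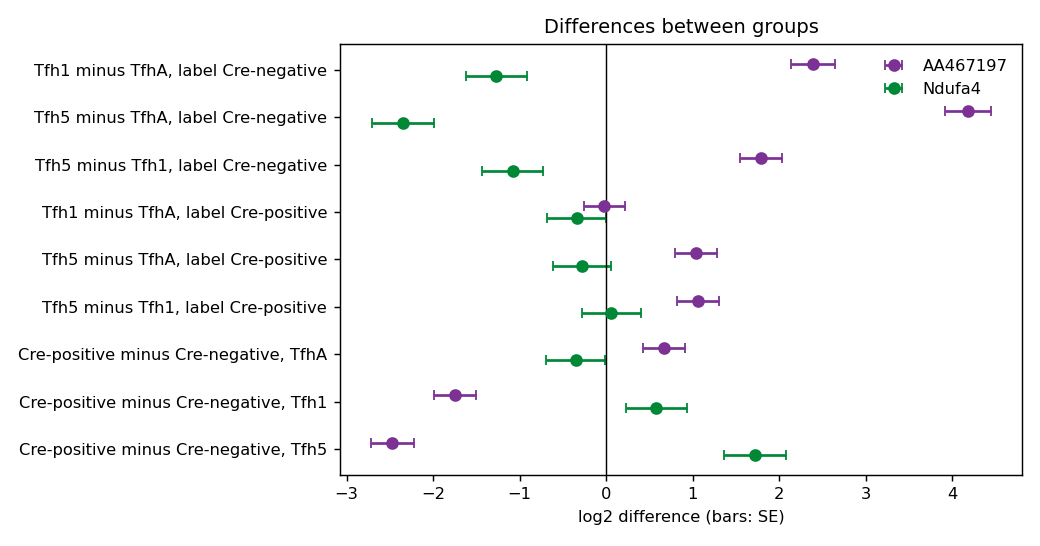
Fitted log2 differences (x axis) of AA467197 and Ndufa4 in the 6 treatment contrasts and 3 label contrasts (y axis), with bars of 1 SE. In the 3 Cre-negative treatment contrasts the genes lie on opposite sides of 0, and in the Tfh5 label contrast AA467197 is at -2.47 and Ndufa4 at 1.72.

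Ordered by mean, AA467197 ran from Cre-negative Tfh5 through Cre-negative Tfh1, Cre-positive Tfh5, Cre-positive TfhA and Cre-positive Tfh1 to Cre-negative TfhA. The only neighbours in that order whose libraries overlapped were Cre-positive TfhA and Tfh1. Cre-positive TfhA, at 49.0 to 101 CPM, also overlapped Cre-negative TfhA, at 41.1 to 70.7 CPM, which is not its neighbour. Ndufa4 ran from Cre-negative TfhA through Cre-positive TfhA, Tfh5 and Tfh1 to Cre-negative Tfh1 and Cre-negative Tfh5, and there the only neighbours that did not overlap were the last pair. By mean, the highest AA467197 group was thus the lowest Ndufa4 group, and the lowest AA467197 group the highest Ndufa4 group.

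The ratio of AA467197 to Ndufa4 counts within a library needs no scaling between libraries. Its absolute size depends on how each transcript is captured, so only its change between groups is compared. Under the Cre-negative label it was 0.902, 0.414 and 0.714 in TfhA, 7.65, 7.83 and 9.16 in Tfh1, and 53.8, 59.7 and 64.3 in Tfh5. The mean rose from 0.677 ± 0.246 to 8.21 ± 0.824 and then to 59.3 ± 5.28 (SD, n = 3 each), an 87.6-fold span with no overlap between treatments. Under the Cre-positive label it was 2.66, 0.753 and 1.14 in TfhA, 1.88, 2.11 and 1.23 in Tfh1, and 3.81, 3.76 and 2.67 in Tfh5. Those means were 1.52 ± 1.01, 1.74 ± 0.456 and 3.41 ± 0.645 (SD, n = 3 each). TfhA and Tfh1 overlapped, and the lowest Tfh5 library lay just above the highest TfhA library, replicate 1.

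On the log2 scale, with 0.5 added to both counts, the Cre-negative ratio rose by 3.67 from TfhA to Tfh1, by 6.52 from TfhA to Tfh5 and by 2.85 from Tfh1 to Tfh5. Each gave p = 0.1 in an exact two-sided permutation test of 3 libraries against 3, the smallest p this design allows, and 0.12 after adjustment over the 6 contrasts. Under the Cre-positive label the changes were 0.37 (p = 0.6), 1.35 (p = 0.1) and 0.99 (p = 0.1) by the same exact permutation test. AA467197 counts in these libraries also entered the label difference that chose the gene, so these p-values are not independent of that choice. Between labels, given without a test, the log2 ratio differed by 1.03 in TfhA (0.53 without Cre-positive TfhA replicate 1), -2.27 in Tfh1 and -4.13 in Tfh5 (Cre-positive minus Cre-negative). In Tfh5 the Cre-negative mean ratio was 17.4-fold the Cre-positive one. The summed level of both genes was not constant: it was 132 ± 23.1, 305 ± 24.7 and 954 ± 176 CPM in Cre-negative TfhA, Tfh1 and Tfh5 (SD, n = 3 each), since AA467197 rose by more CPM than Ndufa4 lost.

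**Figure D3:**
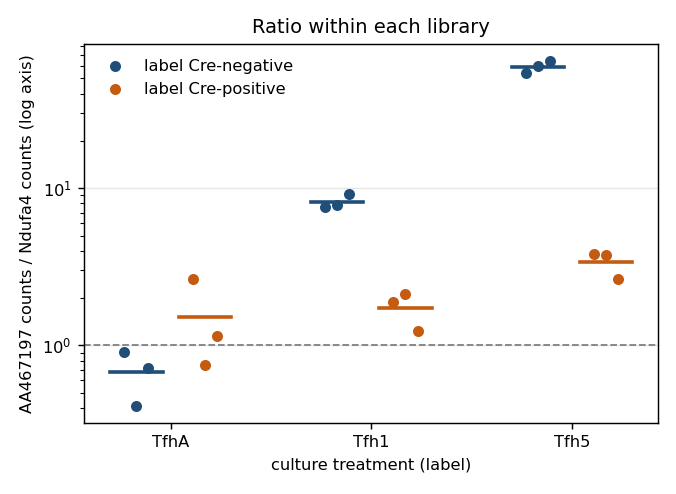
Ratio of AA467197 to Ndufa4 counts within each library (log axis) by treatment and label; points are libraries, bars are means of 3 and the dashed line marks equal counts. Cre-negative Tfh5 libraries lie at 53.8 to 64.3 and no Cre-positive library exceeds 3.81.

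Across the 18 libraries the log2 CPM of the 2 genes had a Pearson r of -0.862, the 11th lowest of the 11734 other genes tested against AA467197. This and the values below are descriptions over libraries that share groups, labels and depth. The genes most like AA467197 were Timp1 (r = 0.939), an inhibitor of matrix metalloproteinases, Smim3 (0.923), a small membrane protein, and Pak1ip1 (0.911), a ribosome biogenesis factor. Next came Chchd2 (0.885), a mitochondrial intermembrane space protein, and Ctla2a (0.878), an inhibitor of cysteine proteases. Timp1 means were 141, 354 and 653 CPM over Cre-negative TfhA, Tfh1 and Tfh5, and 201, 169 and 222 CPM under the Cre-positive label, so it followed the order of AA467197 over a smaller range.

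Among the genes with the lowest r to AA467197 were Id3 (-0.931), an inhibitor of E protein transcription factors, and Cd4 (-0.904), the coreceptor that defines these cells. Cd4 means were 160, 118 and 57.4 CPM in Cre-negative TfhA, Tfh1 and Tfh5, and 174, 156 and 129 CPM under the Cre-positive label. The 7 T cell markers, Cd4 among them, did not fall in sum. Under the Cre-negative label they summed to 1510 to 1560 CPM in TfhA, 1525 to 1831 CPM in Tfh1 and 1608 to 1829 CPM in Tfh5. The genes most like Ndufa4 were Fyn (0.855), a Src family kinase, Akr1c18 (0.852), a hydroxysteroid dehydrogenase, Id3 (0.835), Dnmt3a (0.834), a DNA methyltransferase, and Ankrd44 (0.827). Fyn means were 85.2, 43.5 and 29.4 CPM in Cre-negative TfhA, Tfh1 and Tfh5, and 88.2, 61.0 and 75.3 CPM under the Cre-positive label. Akr1c18 was at most 25.98 CPM in any library, and its Cre-negative Tfh5 mean was 0.0432 CPM.

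The other nuclear subunits of complex IV are set beside Ndufa4 here. Of 17 on the list, 13 had enough counts to be tested; the list and those below were drawn up with earlier results of these data known. From Cre-negative TfhA to Tfh5, 2 of the 13 passed and both rose, where 5.08% of all genes passed and 3.17% rose. They were Cox6c, at 604 ± 68.9 against 1040 ± 124 CPM (SD, n = 3; log2 0.78 ± 0.17, adjusted p = 0.001904, edgeR), and Cox7a1, the heart and muscle form of its subunit, at 8.12 ± 2.19 against 35.8 ± 8.42 CPM (log2 2.14 ± 0.57, adjusted p = 0.01868, edgeR). The Cox6c call held under every alternative, and that of Cox7a1 was lost without TfhA replicate 2 or 5 or Tfh5 replicate 4 (adjusted p 0.09019, 0.1091 and 0.07749, edgeR).

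Cox6a2, Cox7a2 and Cox6b2 were the sparsest of the 13, each at most 15.5 CPM in any library, and Cox6a2 was at 0 in all Cre-negative TfhA and all Tfh5 libraries. The 10 others ran from -0.65 to 2.14 from Cre-negative TfhA to Tfh5, and Ndufa4, at -2.35, lay below them all. Of these 10, 8 were above 0 and their median was 0.27, beside -0.09 over all genes tested. The median was 0.05 when library sizes left out the 2 most abundant identifiers, a scaling that moved the median of all genes by -0.22. Cox4i1, which carries a regulatory site of the enzyme, stood at 277 ± 38.4 CPM in Cre-negative TfhA and 352 ± 153 CPM in Tfh5 (SD, n = 3). Cox5b stood at 123 ± 15.1 and 124 ± 32.1 CPM. Cox7c, at 107 ± 33.5 and 68.2 ± 29.98 CPM, had the sign of Ndufa4 and did not pass (log2 -0.65 ± 0.43, adjusted p = 0.5202, edgeR). Cox8a, at 284 ± 72.6 and 201 ± 61.0 CPM, also had that sign and did not pass (log2 -0.50 ± 0.22, adjusted p = 0.2454, edgeR). From Cre-negative Tfh1 to Tfh5, where Ndufa4 did not pass at -1.08, the 10 subunits ran from -1.30 (Cox7c) to 0.37, with 4 above 0 and a median of -0.08. In Cre-negative Tfh1 against TfhA, where 2.23% of all genes passed, 1 of the 13 passed. It was Cox7a1, which rose by 2.03 ± 0.57 on the log2 scale (adjusted p = 0.04981, edgeR). That call was lost on leaving out any 1 of the 6 libraries (1.6 to 2.3), with limma-voom and with library sizes without the 2 most abundant identifiers. The mitochondrially encoded subunits mt-Co1, mt-Co2 and mt-Co3 had no named row and are not analysed here.

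Between labels in Tfh5, 3 of the 13 passed and all were lower under the Cre-positive label, where 2.05% of all genes were lower. Cox6c stood at 541 ± 16.4 CPM there against 1040 ± 124 CPM (log2 -0.94 ± 0.17, adjusted p = 0.0004083, edgeR). Cox7b stood at 195 ± 24.8 against 352 ± 134 CPM (log2 -0.86 ± 0.21, adjusted p = 0.01469, edgeR) and Cox7a1 at 9.25 ± 3.00 against 35.8 ± 8.42 CPM (log2 -1.95 ± 0.57, adjusted p = 0.04945, edgeR). The Cox6c call held under every alternative. That of Cox7b was lost without Cre-negative Tfh5 replicate 5 (-0.53, adjusted p = 0.254, edgeR) or Cre-positive Tfh5 replicate 1 (-0.77, adjusted p = 0.09485), and with only the compared groups. That of Cox7a1 was lost on leaving out any 1 of the 6 libraries (-2.12 to -1.71), and with limma-voom or either other scaling, where 2 subunits passed, and with only the compared groups, where 1 did. The 10 better counted subunits ran from -1.95 to 0.58, with 5 above 0, and Ndufa4, at 1.72, lay above them all. Their median was -0.18, beside 0.00 over all genes, and -0.08 with library sizes without the 2 most abundant identifiers. Over all 13 tested subunits the median was 0.00. For the change of label difference from TfhA to Tfh5, where 1.19% of all genes passed, Cox6c was the 1 subunit of 13 that passed. It changed by -1.14 ± 0.23 (adjusted p = 0.006098, edgeR), opposite in sign to Ndufa4. At an unadjusted p under 0.05 in edgeR, 4 of the 13 changed downward and 0 upward, Cox6c and Cox7a1 (-2.54 ± 0.79) among them. For this count and the unadjusted one below, the share of all genes at that threshold was not counted. Neither is therefore read as a result about the subunits. Under the Cre-positive label, 0 of the 13 passed from TfhA to Tfh5 by edgeR, DESeq2 or limma-voom, where 5.39% of all genes passed by edgeR, a share at which less than 1 of 13 would pass. At an unadjusted p under 0.05, 3 were lower, and the median of the 10 was -0.28.

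**Figure D4:**
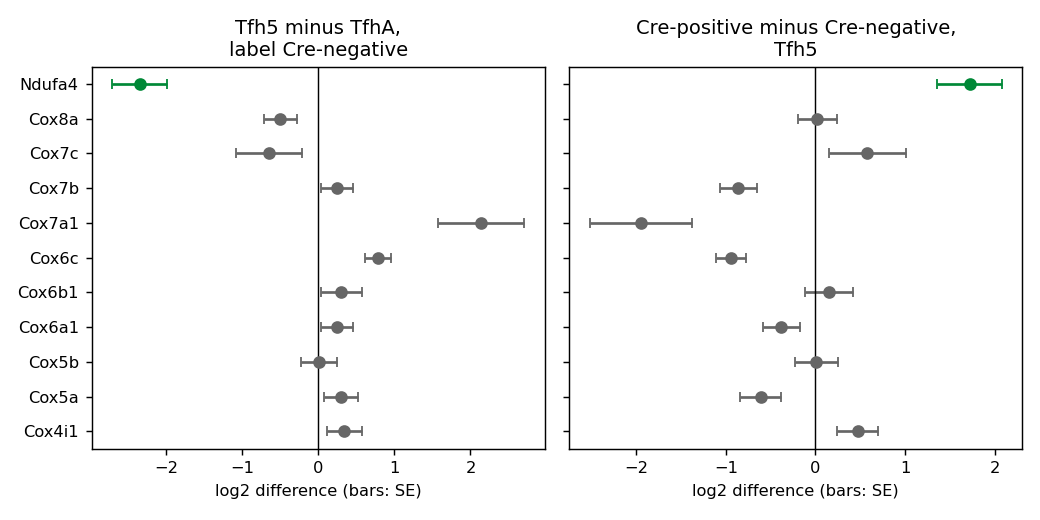
Fitted log2 differences (x axis) with bars of 1 SE for Ndufa4 (green) and the 10 better counted nuclear complex IV subunits (grey), for Tfh5 minus TfhA under the Cre-negative label (left) and Cre-positive minus Cre-negative in Tfh5 (right). Ndufa4 lies at -2.35 on the left and 1.72 on the right, outside the range of the subunits in both panels.

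The wider respiratory chain was read from 4 lists: complex IV subunits, complex IV assembly factors, complex I subunits, and complex III with cytochrome c, of which 77 of 85 genes were tested. From Cre-negative TfhA to Tfh5, 8 rose and 1 fell, with a median of 0.31, where 3.17% of all genes tested rose and 1.91% fell. The risers outside complex IV were 5 complex I subunits, led by Ndufb11 (1.19 ± 0.23, adjusted p = 0.0008974, edgeR) and Ndufc2 (1.0 ± 0.2, adjusted p = 0.001243), and Uqcrh of complex III (1.07 ± 0.18, adjusted p = 0.0001023). These 3 calls held under every alternative. The count of 9 was 5 without Cre-negative TfhA replicate 5. With library sizes that left out the 2 most abundant identifiers, 5 rose and 1 fell, with a median of 0.08. The faller was Sco1, which delivers copper to complex IV, at 56.4 ± 14.8 against 14.4 ± 5.10 CPM (SD, n = 3; log2 -1.97 ± 0.46, adjusted p = 0.006252, edgeR), a call lost without TfhA replicate 4 (-1.72, adjusted p = 0.06015). Sco1 also fell from TfhA to Tfh5 under the Cre-positive label, by 2.73 ± 0.48 (adjusted p = 0.0001809, edgeR), where 2 of the 77 rose and Sco1 was the 1 that fell, beside 2.39% and 3% of all genes. Without Cre-positive TfhA replicate 3 or 6 that count of 3 was 1.

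From Cre-negative TfhA to Tfh1, 4 of the 77 passed, and Ndufb11, Uqcrh, Uqcrq and Cox7a1 all rose, where 1.5% of all genes rose. With library sizes without the 2 most abundant identifiers 2 passed, and the median was 0.18 rather than 0.34. The calls of Uqcrq and Cox7a1 were lost on leaving out any 1 of the 6 libraries, and those of Ndufb11 and Uqcrh were not lost under any alternative. Between labels in Tfh5 the median of the 77 was -0.20, beside 0.00 over all genes. Of the 77, 6 passed and all were lower under the Cre-positive label, where 2.05% of all genes passed as lower. Besides the 3 complex IV subunits they were Ndufc2 (-1.13 ± 0.20, adjusted p = 0.0005424, edgeR), Ndufc1 (-1.16 ± 0.24, adjusted p = 0.002657) and Cycs, which encodes cytochrome c (-1.01 ± 0.25, adjusted p = 0.01368). The count was 3 without Cre-negative Tfh5 replicate 5 and 2 with only the compared groups. It was 5 with library sizes without the 2 most abundant identifiers, where the median of the 77 was -0.10. Cycs did not pass without Cre-negative Tfh5 replicate 2 (-0.76) or Cre-positive Tfh5 replicate 1 (-0.81), nor Ndufc1 without Cre-negative Tfh5 replicate 5 (-0.89, adjusted p = 0.05142). Ndufa4 still passed without the latter library (1.80, adjusted p = 0.008398, edgeR).

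AA467197 is known as an NF-κB responsive gene in macrophages, and 19 of 20 listed NF-κB factors, inhibitors and targets were tested. From Cre-negative TfhA to Tfh5, 1 of the 19 passed, a share close to the 5.08% over all genes. It was Traf1, a signalling adaptor and NF-κB target, and it fell from 106 ± 13.3 to 47.3 ± 9.73 CPM (SD, n = 3; log2 -1.16 ± 0.31, adjusted p = 0.01749, edgeR). That call was lost without TfhA replicate 2 (-1.06, adjusted p = 0.08036) or 5 (-1.17, adjusted p = 0.05446) or Tfh5 replicate 5 (-1.02, adjusted p = 0.1066). At an unadjusted p under 0.05, 0 of the 19 were higher and 2 were lower, and DESeq2 called 2. For this unadjusted count and the one below, the share of all genes was not counted, so neither is read as a result about the list. Traf1 also fell from TfhA to Tfh5 under the Cre-positive label, by 2.37 ± 0.32 (adjusted p = 2.342e-06, edgeR). Nfkbia, the inhibitor that NF-κB induces, fell from TfhA to Tfh1 under the Cre-negative label, by 0.74 ± 0.19 (adjusted p = 0.02753, edgeR), and under the Cre-positive label, by 0.80 ± 0.19 (adjusted p = 0.01258, edgeR). The first call held without Cre-negative Tfh1 replicate 4 and was lost without any other of its 6 libraries (-0.87 to -0.63), and the second was lost without Cre-positive TfhA replicate 1 or 3 or Tfh1 replicate 1 (-0.74, -0.77 and -0.64). Under the Cre-positive label the list median was -0.49 from TfhA to Tfh1 and 0.49 from Tfh1 to Tfh5, beside -0.06 and 0.00 over all genes. In the latter contrast AA467197 rose by 1.06, and 7 of the 19 were below 0. Traf1 was the 1 that passed there, and it fell by 1.74 ± 0.32 (adjusted p = 0.0009907, edgeR), where 1.76% of all genes passed. Between labels in Tfh5, 0 of 19 passed by edgeR, DESeq2 or limma-voom, and 4 had an unadjusted p under 0.05, 2 in each direction. Over all genes 3.24% passed there, a share at which less than 1 of 19 would pass, so the 0 says nothing particular of the list.

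The genes beside both members are described here, and whether a wider stretch of chromosome moved was not tested. Spata5l1 ends 1408 bases before AA467197 and was at 0 in all 18 libraries. Slc30a4, a zinc transporter gene, starts 40156 bases beyond it and had group means of 12.5 to 18.9 CPM. Phf14, a PHD finger gene, starts 274 bases from the Ndufa4 start on the other strand and had group means of 27.9 to 44.7 CPM. Neither Slc30a4 nor Phf14 passed in any of the 13 comparisons (adjusted p 0.6235 to 1.0, edgeR). From Cre-negative TfhA to Tfh5 the differences were 0.35 ± 0.61 for Slc30a4 and 0.04 ± 0.42 for Phf14, where AA467197 was at 4.18 and Ndufa4 at -2.35.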

How the data were processed

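The authors aligned 3′ mRNA reads with STAR 2.7.2b and counted them with featureCounts 1.6.4 on mm10, per the submitters' processing notes. The input was 50 ng of total RNA and the library chemistry Lexogen's forward 3′ kit, per the labels' protocols. The deposited files hold expected counts per gene, not normalized, of which 11.7% to 18.1% per library are not whole; the planned tests assumed whole counts, so values were rounded first. The sources used here do not record how reads were shared out or whether counting was stranded. Identifiers were named through RefSeq's gene table of GRCm38.p6, which named 25275 of 27179. The largest and smallest TMM factors were 1.389 and 0.83.

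All 18 libraries entered 1 quasi-likelihood fit (edgeR 4.0.16, R 4.3.3; filterByExpr, robust, 1 mean per group, no replicate term), with Benjamini-Hochberg adjustment over 11735 genes and a threshold of 0.05. Standard errors are the absolute log2 difference over the square root of F. Counts summed per replicate number were fitted separately (11693 genes). The scripts were tested on simulated data. Alternatives were DESeq2 1.42.0, limma-voom (limma 3.58.1), other scalings, no filter, a replicate block, only the compared groups, values rounded down and single libraries left out. No 2 libraries held identical values.

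The members and gene lists were chosen with earlier results of these data known. Named genes are the members, Ndufa4l2, Maf, up to 3 passing genes per list and comparison by adjusted p, the 5 highest and 3 lowest genes by Pearson r with AA467197, the 5 highest with Ndufa4 (log2 CPM, prior count 2), and neighbours; 1 gene under this rule is not reported here. Cox4i1, Cox5b, Cox7c, Cox8a and the 3 sparsest complex IV subunits were named beyond that rule, after their values were seen. Intervals and floors (3 counts for a value of 0) cover counting error only where they rest on counts, since PCR copies are not independent molecules.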

Additional observations from a re-analysis of the deposited data

Results flagged for a closer look

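The difference between Cre labels in Ndufa4 was not the same in Tfh5 and in TfhA. The log2 difference of Cre-positive minus Cre-negative was 1.72 ± 0.36 (SE) in Tfh5 and -0.35 ± 0.34 in TfhA, and the change between them was 2.07 ± 0.49 (adjusted p = 0.02103, edgeR's quasi-likelihood test with Benjamini-Hochberg adjustment). All 3 Cre-positive Tfh5 libraries lay above all 3 Cre-negative ones, and the TfhA groups overlapped. The change spanned 1.81 to 2.35 with single libraries left out, and 3 of those fits lost the call.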

How the results depend on the processing

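Of 453 values of both genes and of their ratio under alternatives, 427 were the same, 17 lost a call and 9 changed sign. The cause of these changes was not tested. Tested values counted as the same if they kept their direction and their side of the threshold, which includes values that passed in neither fit. The ratio under a replicate block could only count as the same, since a mean of paired differences equals the difference of means. Ratios and AA467197 label differences, with no test here, counted as the same if they kept their direction and lay within 1 within-group SD. Ndufa4 between labels in Tfh5 lost its call with limma-voom (1.68) and with only the compared groups (1.73), and the change of its label difference from TfhA to Tfh5 lost it with limma-voom (2.0) and spanned 1.81 to 2.35 with single libraries left out. Same-numbered libraries did not deviate together (18 pairs, r -0.037 to 0.066, 7 of them best matched to their own number), so the numbers are not shown to pair samples. With a replicate block Ndufa4 from Cre-negative TfhA to Tfh1 was -1.24 (adjusted p = 0.05713, edgeR) and AA467197 from Cre-positive TfhA to Tfh1 was 0.06, and no other member's call or direction changed under the block. The latter was 0.11 with limma-voom and spanned -0.29 to 0.15 with single libraries left out. So left out, Ndufa4 from Cre-negative TfhA to Tfh1 spanned -1.41 to -1.05, AA467197 from Cre-positive TfhA to Tfh5 0.77 to 1.22 (1.04 with only the compared groups) and from Tfh1 to Tfh5 0.93 to 1.22, Ndufa4 from Cre-positive Tfh1 to Tfh5 -0.18 to 0.35, and the log2 ratio from Cre-positive TfhA to Tfh1 -0.04 to 0.87. Respiratory genes called spanned, so left out, 5 to 10 (Cre-negative TfhA to Tfh5; 13 with DESeq2), 1 to 3 (Cre-positive) and 3 to 6 (labels in Tfh5; 7 with DESeq2 and 2 with only the compared groups). NF-κB genes called, where Traf1 was the 1, spanned 0 to 1 and 1 to 2 in the first pair (2 and 2 with DESeq2), and the NF-κB medians -0.22 to 0.03, -0.41 to -0.02 and -0.29 to 0.09. Over all genes the count called moved more: between labels from 0 to 0 to 40 in TfhA, from 100 to 51 to 283 in Tfh1, from 380 to 80 to 654 in Tfh5 and from 197 to 94 to 519 in summed counts. From TfhA to Tfh1 it moved from 262 to 129 to 566 (Cre-negative) and from 302 to 170 to 631 (Cre-positive), from TfhA to Tfh5 from 596 to 360 to 912 and from 633 to 448 to 1019, and from Tfh1 to Tfh5 from 65 to 25 to 261 and from 206 to 115 to 437. For changes of the label difference it moved from 28 to 18 to 64, from 140 to 81 to 264 and from 7 to 3 to 59. Sizes without the 2 most abundant identifiers moved the median of all genes by -0.22 (Cre-negative TfhA to Tfh5) to 0.20. Ndufa4 counts of 104 to 971 limit its precision more than those of AA467197 do.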
